A study of Homo sapiens with 2 samples.

Results

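The heights of open-chromatin peaks at the promoters of chromosome 6 were followed from the end of the short arm, 6p, to the end of the long arm, 6q, in CAMA-1, an established line of luminal breast cancer cells. Chromatin accessibility had been measured by ATAC-seq, which relies on a transposase, Tn5, that cuts open DNA and tags the fragments for sequencing. The series used here holds 2 biological replicates of untreated, adherent CAMA-1 cultures, which form a single condition, so that no groups of samples were compared. Both come from 1 cell line and describe that line alone.

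Peaks of chromosome 6 that lay within 1 kb of an annotated transcription start site (TSS) of a protein-coding gene were taken as its TSS peaks. There were 1638 of them among 13267 peaks of the chromosome in replicate 1, and 1628 among 13925 in replicate 2. Over all chromosomes, 36519 of 245736 peaks and 36978 of 259745 peaks were TSS peaks. Each gene was represented by its strongest TSS peak, by fold enrichment over the background of the peak caller. The fold enrichments are whole multiples of a single step, and this step gives the height of a peak, which is the number of reads stacked at its highest base (the flat background was 3.35 such reads in replicate 1, and 3.52 in replicate 2). Chromosome 6 was chosen by these same measured heights, so its heights and steps are given as a description without a test. With 2 replicates, an exact sign-flip test cannot give a p-value under 0.5 in any case. The interval after a single height is a 95% exact Poisson interval, which covers counting error only. Heights were not corrected for the number of DNA copies of a region, so a height is not a measure of openness alone.

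A promoter is opened when transcription factors and remodelling enzymes displace the nucleosomes around the TSS, and this leaves DNA on which RNA polymerase II can assemble. Chromosome 6 carries contrasting kinds of promoter. The short arm holds the major histocompatibility complex, with the HLA genes that present antigens to T cells, and the largest clusters of replication-dependent histone genes, which supply histones in S phase. The long arm holds ESR1, which encodes the estrogen receptor of luminal breast cells, and several genes known as restraints on growth.

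The epithelial label of the cultures was checked against marker genes. All 10 luminal markers examined, such as KRT8, EPCAM and FOXA1, had a TSS peak in both replicates, and their heights were 135 to 608 in replicate 1 and 141 to 662 in replicate 2. Of 10 markers of blood, fibroblasts, endothelium and basal epithelium, 6 had a TSS peak, with heights from 22 to 318 and from 28 to 303. PTPRC, CD3E, CD79A and PECAM1 had none. Over all chromosomes 79.3% of genes had a TSS peak in both replicates, so a peak at a marker gene says little by itself. The peaks at COL1A1 and PDGFRB reached 318 and 280 in replicate 1 and were both 303 in replicate 2, so an open TSS in these lists did not single out epithelial genes.

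DNA is shown first for the tallest promoters of each arm. The lines give the 100 bases just upstream of the RefSeq TSS (GRCh38.p14), 5′ to 3′ on the strand of the gene, for the 3 genes of each arm with the highest mean height whose window lay inside the peak in both replicates and held no annotated untranslated region, and for PHF3, the first gene beyond the best single split of the chromosome by height. Capitals mark the GC box (GGGCGG), the CCAAT box (CCAAT), an ETS core (CCGGAAG) and the TATA box (TATAAA), searched on both strands.
BRD2: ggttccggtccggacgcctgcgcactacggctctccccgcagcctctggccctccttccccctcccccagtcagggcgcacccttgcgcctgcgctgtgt
E2F3: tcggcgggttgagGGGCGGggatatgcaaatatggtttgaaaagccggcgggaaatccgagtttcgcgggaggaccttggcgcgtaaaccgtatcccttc
NFYA: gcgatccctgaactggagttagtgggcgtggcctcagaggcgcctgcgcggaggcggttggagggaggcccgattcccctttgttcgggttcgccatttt
HSF2: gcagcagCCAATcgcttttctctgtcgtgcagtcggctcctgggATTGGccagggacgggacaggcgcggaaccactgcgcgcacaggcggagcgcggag
ABRACL: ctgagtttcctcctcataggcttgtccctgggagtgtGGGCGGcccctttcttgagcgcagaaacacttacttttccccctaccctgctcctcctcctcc
TFB1M: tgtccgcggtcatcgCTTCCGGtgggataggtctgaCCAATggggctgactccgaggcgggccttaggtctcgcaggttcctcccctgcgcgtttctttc
PHF3: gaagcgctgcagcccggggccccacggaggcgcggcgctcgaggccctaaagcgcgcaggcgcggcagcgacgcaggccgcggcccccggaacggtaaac

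These windows lie at chr6:32968494-32968593 (BRD2), chr6:20401779-20401878 (E2F3), chr6:41072874-41072973 (NFYA), chr6:122399451-122399550 (HSF2), chr6:139028645-139028744 (ABRACL), chr6:155314485-155314584 (TFB1M, reverse strand) and chr6:63635702-63635801 (PHF3). All but TFB1M are on the forward strand. The GENCODE TSS of TFB1M, at 155314493, lies inside its window, so the last bases shown fall within the GENCODE gene. The GC content was 73% at BRD2, 58% at E2F3 and 64% at NFYA on 6p, and 68% at HSF2, 58% at ABRACL and 63% at TFB1M on 6q. The peaks over them were 942 and 961 stacked reads high at BRD2 in replicates 1 and 2, but 379 and 416 at HSF2. PHF3, with the most GC-rich window (78%) and 17 CpG dinucleotides, had a peak of 189 and 218. These 7 promoters were thus not ordered by GC content.

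The same letters were counted over the 200 bases upstream of all RefSeq promoters, of which 721 belonged to genes of chromosome 6 with a TSS peak. A GC box was found in 54.6% of 434 promoters of 6p and in 66.9% of 287 promoters of 6q, against 54.1% of 15345 promoters of protein-coding genes. A CCAAT box was found in 36.9% on 6p, 28.9% on 6q and 30.8% over all promoters. The ETS core stood at 9.45%, 10.5% and 10.9%, and the TATA box at 10.8%, 7.32% and 7.57%, in the same order. The NRF1 core (GCGCATGC), also counted, was found in 5.99%, 2.79% and 3.51%, and the CRE (TGACGTCA) in 3.69%, 2.79% and 2.26%. The arm with the lower peaks therefore had the larger share of promoters with a GC box or an ETS core. It had the smaller share with the other letters.

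Of the 1051 protein-coding genes of chromosome 6, 845 had a TSS peak in both replicates, which is 80.4% (95% Wilson interval 77.9 to 82.7%), close to the 79.3% of genes over all chromosomes. The share was 82.7% (79.5 to 85.5%) for the 619 genes of 6p and 77.1% (72.9 to 80.8%) for the 432 genes of 6q. A further 19 genes had a peak in 1 replicate only, 13 in replicate 1 and 6 in replicate 2. H4C13 had a peak of 111 in replicate 2 alone, and the other 18 were at most 31 high. The remaining 187 genes had none, 94 on 6p and 93 on 6q. Some genes shared a peak, and the 845 genes were represented by 738 different peaks in replicate 1 and 739 in replicate 2.

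Members of several gene families were among the genes without a TSS peak. Of 19 olfactory receptor genes on chromosome 6, 15 had no TSS peak, and the 4 others were 16 to 109 high in replicate 1 and 18 to 125 in replicate 2. None of the 4 beta-defensin genes, which encode antimicrobial peptides, had one. Of 6 trace amine-associated receptor genes, only TAAR2 had a peak, of 25 and 35 stacked reads. Among the phosphate and urate transporters of the SLC17A family, 4 of 5 genes had none, and the exception, SLC17A5, a lysosomal carrier, was 206 and 219 high. Of 5 glutathione S-transferase alpha genes 4 had a TSS peak in both replicates, and of 6 SLC22 transporter genes 3 did. All these counts are to be read against the 80.4% of all genes of chromosome 6. These families were chosen after the genes without a peak were seen.

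The distance limit of 1 kb fell where heights were low on both sides. Peaks over 800 and up to 1000 bp from a TSS, just inside it, had a median height of 33.5 (146 peaks, replicate 1) and 38 (145 peaks, replicate 2). Peaks over 1000 and up to 1200 bp away, just outside it, had medians of 26 (121 peaks) and 29 (107 peaks). Peaks that covered a TSS had medians of 174 and 181.5.

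TSS peaks of 6p were more than 2.2 times as high as those of 6q. Over the 512 genes of 6p the median height was 326 in replicate 1 and 350 in replicate 2, and over the 333 genes of 6q it was 147 and 156. The ratio was 2.22 and 2.24 in the replicates, or 2.23 ± 0.0183 (SD, n = 2). The 15045 genes of the other chromosomes had medians of 224 and 240, which lie between the arms. A height above that median was found for 67.4% and 67.8% of genes of 6p but for 24.3% and 25.8% of genes of 6q. Heights of the replicates ranked the genes of chromosome 6 nearly alike (Spearman ρ = 0.990 over 845 genes, which share their libraries), and heights were 1.07 times as high in replicate 2 as in replicate 1 by the median over genes.

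The ratio was smaller at the low end of the distribution than at the middle and the top. The ratio of 6p to 6q was 1.28 ± 0.123 (SD, n = 2) at the 10th percentile of height, 1.81 ± 0.0578 at the 25th, 2.13 ± 0.0651 at the 75th and 2.40 ± 0.0456 at the 90th. Heights over 300 were reached by 277 genes of 6p (54.1%) and 20 genes of 6q (6.01%) in replicate 1. In replicate 2 these were 297 (58.0%) and 30 (9.01%), against 33.6% and 38.0% of genes on the other chromosomes. All of the 100 highest genes of the chromosome lay on 6p in replicate 1, and 98 of them did in replicate 2.

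**Figure D1:**
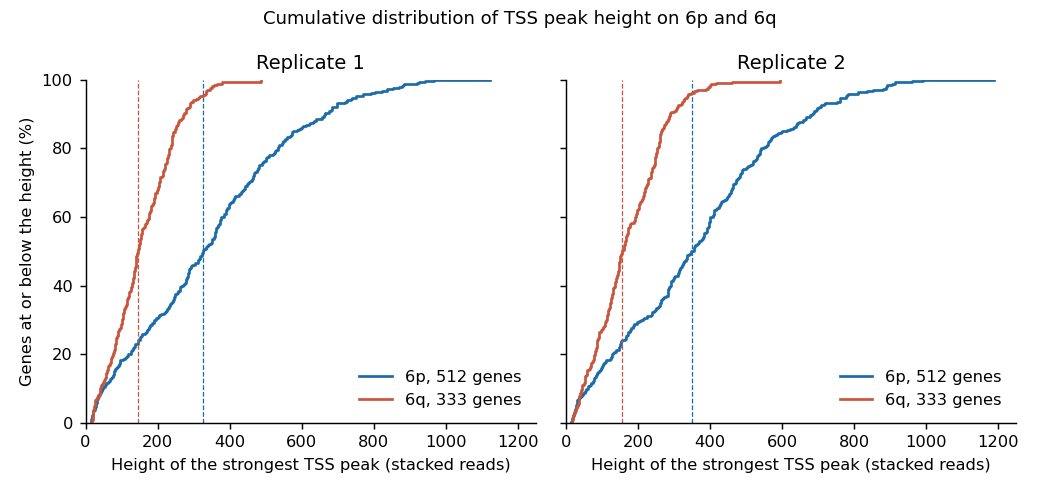
Cumulative share of genes (vertical axis, %) at or below each height of the strongest TSS peak (horizontal axis, stacked reads) for the 512 genes of 6p and the 333 genes of 6q, with 1 panel per replicate and dashed lines at the medians. The curves are closest at the lowest heights and separate above them, with medians of 326 and 147 in replicate 1 and of 350 and 156 in replicate 2.

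The arms were also compared within classes of promoter composition. Whether composition matched between the arms within a class was not tested. Promoters were called CpG rich when the 500 bp on each side of the TSS had a GC content of at least 55% and an observed-to-expected CpG ratio of at least 0.65. This class held 47.3% of the genes of 6p and 68.5% of those of 6q, and the median GC content was 58.4% and 61.5%. Among CpG-rich promoters, the median height was 368.5 and 394.5 for 242 genes of 6p and 165 and 178 for 228 genes of 6q, a ratio of 2.22 ± 0.0120 (SD, n = 2). At the 10th percentile the ratio of CpG-rich promoters was 2.03 ± 0.0925, so it was nearer to the ratio of medians than over all genes. Among the other promoters the ratio of medians was 2.56 ± 0.000303, and at the 10th percentile the ratio was 1.09 ± 0.241, with 6p higher in replicate 1 and lower in replicate 2. Peaks were also wider on 6p, with a median width of 1269 bp and 1267.5 bp against 798 bp and 810 bp on 6q. Whether width follows height was not tested, so width is not taken as a separate measure. Genes were denser on 6p, with 10.3 protein-coding genes per Mb against 3.90 on 6q.

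Medians in fixed bins of 5 Mb, counted from the first base, placed the drop near the centromere. The 12 bins of 6p had median heights of 145 to 395 (replicate 1) and 187 to 410 (replicate 2). The 19 bins of 6q with at least 5 such genes had medians of 62 to 289 and 75 to 321. Of the bins of 6p, 11 lay above the median of all 548 bins of the genome with at least 5 genes (223 and 246), and of those of 6q, 1 did, in both replicates. The highest bin of 6p, from 15 to 20 Mb, ranked 22 and 26 of 548. The bin from 65 to 70 Mb, on 6q, was the lowest of all 548 in both replicates, but it held only 5 genes with a peak, the fewest allowed. For EYS, placed in this bin by its most 5′ TSS, the peak lay outside it, at chr6:63805903-63806881 in replicate 1.

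**Figure D2:**
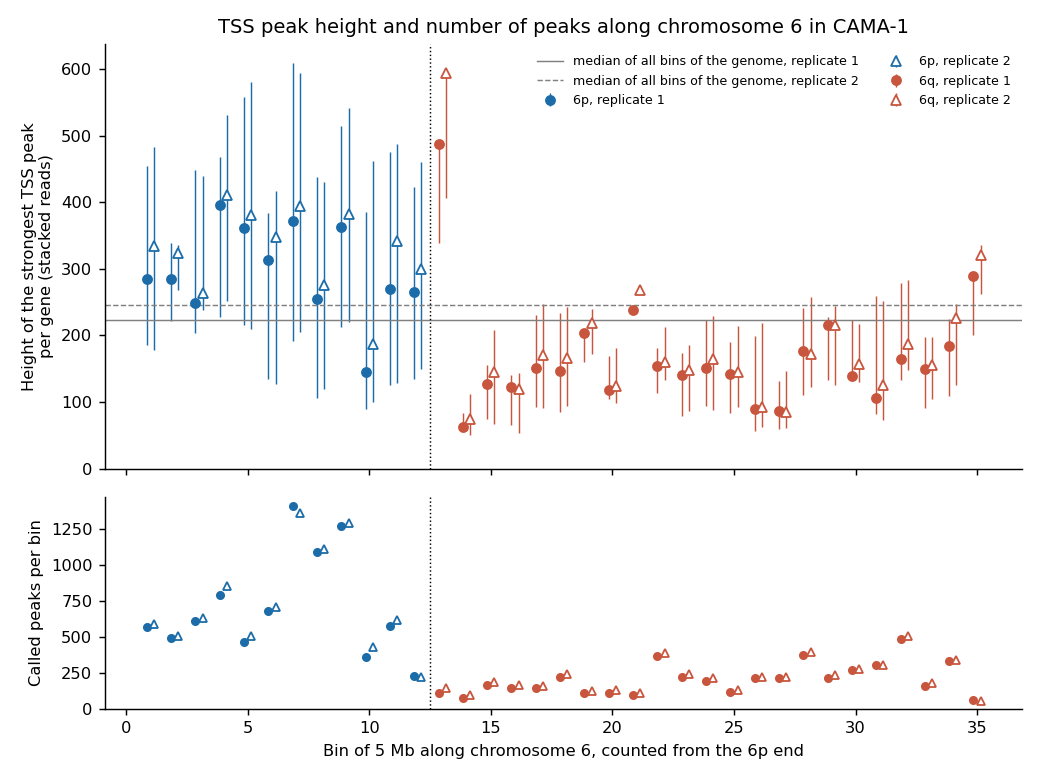
Median height of the strongest TSS peak per gene with the 25th and 75th percentiles as bars (top, stacked reads) and number of called peaks (bottom) in the 35 bins of 5 Mb along chromosome 6, with filled circles for replicate 1, open triangles for replicate 2 and a dotted line between the arms. Bins 1 to 12 are on 6p and 11 of them lie above the grey line of their replicate, the median of all bins of the genome, while bins 14 to 34 lie below it except bin 21, which holds 2 genes, and bin 13, the tall bin just after the dotted line, rests on 3 genes.

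A single split of the whole chromosome gave the smallest summed absolute deviation of log2 height from the medians of its sides at 65 Mb in both replicates. The median was 326 over 515 genes before this position and 145 over 330 genes after it in replicate 1, and 352 and 156 in replicate 2. The ratio of the side after to the side before was 0.445 and 0.443, and the split removed 11.6% and 11.5% of the deviation. A split at 60 Mb, the bin boundary nearest the centromere, removed 11.4% and 11.3%. When every gap between neighbouring genes was considered, the best boundary in both replicates lay between the TSSs at 63572472 (ENSG00000285976) and 63635802 (PHF3), a span within 6q.

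A single split removed a larger share of the deviation here than on any other chromosome. Of the 23 chromosomes with a split, chromosome 6 ranked 1 by the deviation removed in both replicates, and chromosome 8 ranked 2, with 10.1% and 10.9% at 35 Mb. By the fold across the boundary chromosome 6, with 2.25 and 2.26 times, came after chromosome 15 with 2.66 and 2.69 times and chromosome 8 with 2.31 and 2.55 times. Chromosome 1 followed with 5.16% in both replicates. The median height over all genes of chromosome 6, 226 and 248, ranked 13 and 10 of 23, so the chromosome as a whole was not high or low.

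**Figure D3:**
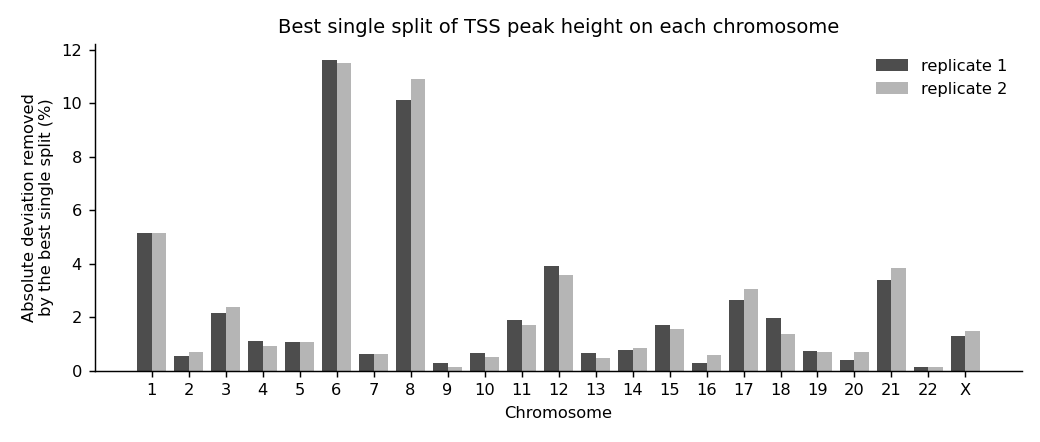
Share of the summed absolute deviation of log2 TSS peak height that the best single split between 5 Mb bins removes (vertical axis, %) on each of 23 chromosomes, with dark bars for replicate 1 and light bars for replicate 2. Chromosome 6 has the tallest bars (11.6% and 11.5%), followed by chromosome 8 (10.1% and 10.9%).

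Genes on both sides of the centromere varied widely. On 6p, DST, which encodes a linker of the cytoskeleton, had a height of 698 and 696, and ZNF451, a SUMO ligase, one of 620 and 691. Of the 10 genes with a peak from 55 to 60 Mb, 5 were below the median of 6p and in the range of 6q. These were HCRTR2 (31 and 27), an orexin receptor, HMGCLL1 (71 and 91), COL21A1 (179 and 214), a collagen, BAG2 (126 and 147), a cochaperone of HSP70, and RAB23 (157 and 157), a small GTPase. The values of DST, HCRTR2 and COL21A1 came from peaks at or near internal TSSs. The last gene of 6p with a peak, PRIM2, a subunit of the DNA primase, was 350 (314 to 389) and 388 (350 to 429) high. KHDRBS2, FKBP1C and LGSN, which follow on 6q, had no TSS peak.

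PTP4A1, a protein tyrosine phosphatase associated with growth, then had the highest peak of all of 6q, at chr6:63571602-63574676 in replicate 1. It was 488 (446 to 533) and 594 (547 to 644) stacked reads high, within the range of 6p, and was shared with ENSG00000285976. PHF3, a regulator of transcript elongation whose promoter is shown above, was 189 (163 to 218) and 218 (190 to 249). Beyond it, EYS was 84 and 112, ADGRB3 60 and 75, and LMBRD1, a lysosomal protein of vitamin B12 export, 219 and 258. EYS, ADGRB3 and LMBRD1 were represented by peaks at internal TSSs. From PHF3 on, no gene of 6q was above 379 in replicate 1 or 460 in replicate 2, while 205 genes of 6p (40.0%) and 165 genes of 6p (32.2%) were.

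The best single splits inside the arms gave smaller steps than that of the whole chromosome. On 6p the best split fell at 15 Mb in both replicates, with medians of 281 and 293 over 63 genes before it and 337 and 363 over 449 genes after it. The ratio was 1.20 and 1.24, and the split removed 0.535% and 0.517% of the deviation. Its place and direction were not stable, because the best boundary moved to 45 Mb, with a fall to 0.661 of the former height, when each peak was counted once in place of each gene. With replicate 1 alone, which adds 9 genes on 6p, it also fell at 45 Mb, with a ratio of 0.652.

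Around 15 Mb, the genes nearest the boundary on the side of the telomere were low. RNF182, a ubiquitin ligase, was 36 and 22 high, and CD83, known as a marker of mature dendritic cells, was 97 and 86. On the other side JARID2, a subunit of the Polycomb complex PRC2, reached 395 and 441, and DTNBP1, a subunit of the BLOC-1 complex, 245 and 293. The 3 highest genes before 15 Mb were TFAP2A, an AP-2 transcription factor of epithelia, with 597 and 537, WRNIP1, a partner of the Werner helicase, with 573 and 539, and TMEM14C, a mitochondrial membrane protein, with 537 and 566.

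The 3 highest genes after 15 Mb, by the mean of the replicates and with 1 gene per peak, were also the highest of the chromosome. MCM3, a subunit of the replicative helicase, had the highest TSS peak of chromosome 6, at chr6:52284143-52285421 in replicate 1, with 1122 (1057 to 1190) and 1188 (1121 to 1258) stacked reads. GRM4, a metabotropic glutamate receptor of neurons, reached 926 and 992 through a peak at an internal TSS at 34056323. BRD2, a bromodomain protein that binds acetylated histones, reached 942 and 961 with a peak of over 6 kb that also covers the TSS of HLA-DMA.

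On 6q the best split fell at 155 Mb in replicate 1 and at 165 Mb in replicate 2. In replicate 1 the median rose from 141 over 282 genes to 191 over 51 genes, and in replicate 2 from 150 over 306 genes to 240 over 27 genes. The ratios were 1.35 and 1.60, and 1.63% and 1.78% of the deviation was removed. The place of this step was not stable either, since it fell at 165 Mb in replicate 1 alone, which adds the genes with a peak only there, and at 165 and 135 Mb with 1 value per peak. Next to 155 Mb, SCAF8, which binds the tail of RNA polymerase II, was 293 and 289 high, and TIAM2, an activator of RAC1, was 23 and 22. After the boundary TFB1M, a methyltransferase of mitochondrial ribosomal RNA, was 345 and 338, and ARID1B, a subunit of the BAF remodelling complex, was 350 and 460 through a peak at an internal TSS at 157198509.

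The highest genes of 6q before 155 Mb, after PTP4A1, were HSF2, a heat shock transcription factor, with 379 (342 to 419) and 416 (377 to 458), and HMGN3, a nucleosome-binding protein, with 378 and 393. PSMB1, a subunit of the proteasome core that shares its peak with TBP, the TATA-binding protein, was 289 and 336 high near the end of the arm. The 3 highest genes of 6q after 155 Mb were thus ARID1B, TFB1M and PSMB1, all below the height of PTP4A1.

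Neighbouring bins were also compared pair by pair. Of 26 pairs on chromosome 6 in which both bins held at least 5 genes, 6 (23.1%) differed by at least 1.5 times in the same direction in both replicates, against 24.8% of the 492 pairs of all chromosomes. The bin was higher than the one before it after 15, 50, 70 and 135 Mb and lower after 45 and 125 Mb. At 45 Mb the median fell to 0.399 and 0.490 of that before. It rose 2.04 and 1.93 times at 70 Mb and 2.03 and 2.04 times at 135 Mb. These local steps were of a size with the 2.25 and 2.26 times across the best split of the chromosome, but each compares single bins. The share was close to that background, but the count was 11 with replicate 1 alone and 2 to 11 with other bins, for which no share of all chromosomes was computed. The boundaries at 60 and 65 Mb could not be compared in this way, as the bin between them held only 3 genes with a peak.

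The dip of 6p lay from 45 to 50 Mb, where the median over 21 genes was 145 and 187, between medians of 363 and 382 before it and 270 and 342 after it. Genes in the dip differed widely. ENPP5, a membrane ectoenzyme, was 736 and 779 high and TNFRSF21, a death receptor, 501 and 539, whereas RUNX2, the transcription factor of bone formation, was 89 and 98, ADGRF5 26 and 36, and PGK2, a glycolytic enzyme of the testis, 30 and 51.

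On 6q the bins from 125 to 135 Mb were low, with medians of 90 and 93 over 15 genes and of 86.5 and 84.5 over 16 genes. There CCN2, a matricellular growth factor, was 49 and 53, EYA4 22 and 27, and RSPO3, an enhancer of WNT signalling, 37 and 39. TRMT11, a transfer RNA methyltransferase, and ARHGAP18, which restrains RHOA, were higher, with 238 and 282 and with 239 and 230. From 140 to 145 Mb the median was 215 and 215.5 over 14 genes, with UTRN, the homologue of dystrophin, at 271 and 322. The last bin, from 170 Mb on, had 5 genes from 201 to 297 high in replicate 1 and a median of 289 and 321, and among the bins of 6q with at least 5 genes it is the single one above the genome median. The genes named for the dip and for these bins were chosen after their values were seen.

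The number of called peaks per bin also differed between the arms. There were 142.5 and 147 peaks per Mb on 6p and 42.6 and 45.9 on 6q, a ratio of 3.28 ± 0.0977 (SD, n = 2). The bins of 6p held 229 to 1410 peaks in replicate 1 and 222 to 1362 in replicate 2. Across the 35 bins, the median TSS peak height and the number of peaks had a Spearman ρ of 0.488 and 0.525. Within 6p it was 0.510 and 0.531 over 12 bins, and within 6q −0.0830 and 0.00346 over 23 bins. Bins share their library, so these values only describe the map. Height followed the number of protein-coding genes per bin less closely (ρ = 0.0945 and 0.140) and the median GC content of promoters with ρ = 0.319 and 0.286.

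**Figure D4:**
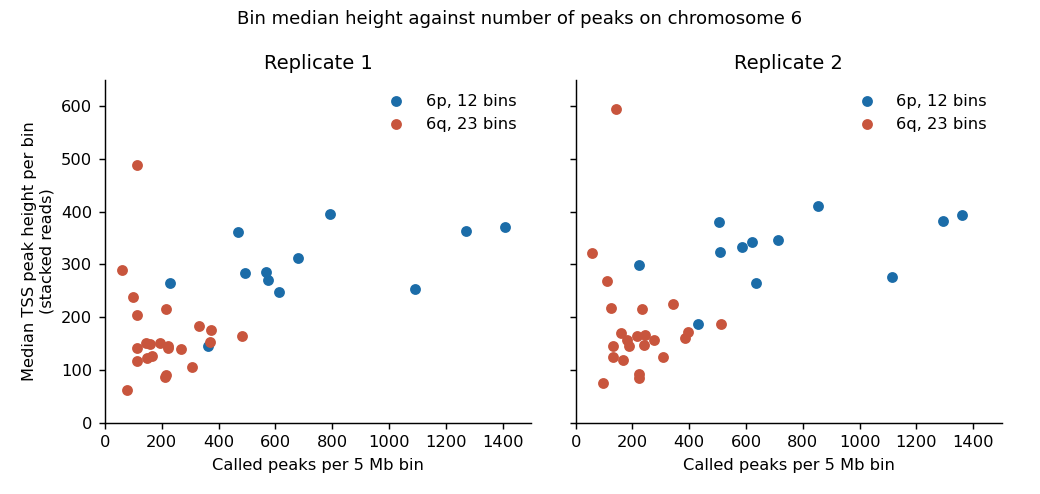
Median TSS peak height (vertical axis, stacked reads) against the number of called peaks (horizontal axis) in 5 Mb bins of chromosome 6, with 12 bins of 6p and 23 bins of 6q in each of the panels for replicates 1 and 2. Bins of 6p lie to the right of and above most bins of 6q, and within 6q the points show no slope (ρ = −0.0830 and 0.00346), while the bin of 6q near 500 to 600 rests on 3 genes.

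Peaks away from promoters, which had no part in the choice of genes, were compared between the arms. More than 3 kb from any protein-coding TSS there were 6736 and 7020 peaks on 6p and 3863 and 4215 on 6q. Their median height was nearly the same, 33 and 34 on 6p and 34 and 34 on 6q, a ratio of 0.985 ± 0.0208 (SD, n = 2). With only peaks at a −log10 q of at least 10 the direction turned, and the ratio was 1.11 ± 0.00365. The median over all peaks of the genome was 35 in both replicates. The lowest called height was 11, and the part of this limit in the likeness of the distal medians was not tested. Higher in the distribution the arms separated, with ratios of 1.20 ± 0.0136 at the 75th percentile, 1.52 ± 0.00400 at the 90th and 1.87 ± 0.0204 at the 99th. Heights over 100 were reached by 18.8% (17.8 to 19.7%) and 19.0% (18.1 to 19.9%) of distal peaks on 6p and by 12.2% (11.2 to 13.2%) and 12.6% (11.6 to 13.6%) on 6q (95% Wilson intervals). Per Mb these tall distal peaks were 4.80 ± 0.233 times as many on 6p. All distal peaks numbered 112 and 117 per Mb on 6p against 34.9 and 38.0 on 6q, and the part of these numbers in the medians was not tested.

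Among distal peaks, those with letters of the binding motif of CTCF were taken as a class by sequence alone. CTCF is the factor that anchors chromatin loops and is bound in most cell types. Letters this short, with any base at N, can occur without bound CTCF, and binding was not measured here. The letters AGGNGGCGC or AGGNGGCAG, on either strand within 50 bp of the midpoint, were found in 2.92% and 2.73% of distal peaks. Their median height was 53 and 42.5 over 159 and 164 peaks of 6p, and 38 and 37 over 151 and 143 peaks of 6q. The ratio of medians was 1.27 ± 0.174 (SD, n = 2), and at the 90th percentile it was 2.08 ± 0.160. The 3 tallest such peaks of each arm in replicate 1 are shown by 101 bases of hg38 around the midpoint, forward strand, to give the sequence beneath a tall distal site on each side of the drop. Capitals mark the searched letters.
6p site 1: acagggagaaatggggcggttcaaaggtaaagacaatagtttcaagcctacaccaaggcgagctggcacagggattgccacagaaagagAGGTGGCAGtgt
6p site 2: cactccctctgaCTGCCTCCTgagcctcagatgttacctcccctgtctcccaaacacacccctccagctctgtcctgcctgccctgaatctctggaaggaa
6p site 3: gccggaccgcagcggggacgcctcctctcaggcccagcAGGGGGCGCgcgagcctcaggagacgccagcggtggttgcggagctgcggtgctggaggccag
6q site 1: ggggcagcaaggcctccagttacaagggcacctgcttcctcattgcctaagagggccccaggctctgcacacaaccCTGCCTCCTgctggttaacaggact
6q site 2: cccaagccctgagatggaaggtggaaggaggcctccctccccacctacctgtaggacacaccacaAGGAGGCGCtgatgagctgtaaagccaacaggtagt
6q site 3: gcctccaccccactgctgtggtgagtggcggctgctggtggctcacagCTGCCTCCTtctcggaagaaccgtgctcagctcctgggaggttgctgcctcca

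The windows of 6p lie at chr6:10084620-10084720, chr6:30091995-30092095 and chr6:46849083-46849183, each outside protein-coding genes and annotated exons, and their peaks were 467 and 512, 466 and 469, and 402 and 390 stacked reads high. Those of 6q lie at chr6:89375598-89375698 in an intron of RRAGD, at chr6:136644267-136644367 in an intron of MAP3K5, and at chr6:154615733-154615833 outside genes. Their peaks were 200 and 214, 200 and 198, and 198 and 190 high. The order of these sites follows from their choice as the tallest of each arm, and the tallest peak with these letters in replicate 2 reached 818 on 6p and 315 on 6q.

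The gene lists below were described by their counts within the arm. The medians of the arms, 326 and 350 on 6p and 147 and 156 on 6q, are the levels to read them against. Shares of members with a TSS peak are to be read against the 82.7% and 77.1% of all genes of 6p and 6q. The highest and lowest of each list are named, and other genes named from a list were chosen after their values were seen. Some genes, such as RUNX2, CCND3, SGK1, PRDM1, HDAC2 and SYNE1, were represented by a peak at or near an internal TSS.

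Transcription factors of 6p spanned almost the whole range of the arm. Of 12, 10 had a TSS peak, and 5 of the 10 were above the median of 6p in both replicates. NFYA, a subunit of the CCAAT-binding factor NF-Y, was highest with 921 and 889, followed by TFAP2A with 597 and 537. TFAP2B, its paralogue, was lowest with 29 and 30, and RUNX2 had 89 and 98. FOXF2, a mesenchymal forkhead factor, and TFAP2D had no TSS peak.

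Cell cycle and growth genes of 6p all had a TSS peak, and 7 of 10 were above the median of the arm. E2F3, which drives entry into S phase, reached 966 (906 to 1029) and 881 (824 to 941). SRF, the serum response factor, had 721 and 777, and CCND3, a G1 cyclin, 489 and 517. CDKN1A, the p53-induced inhibitor of cyclin-dependent kinases, had 444 and 432. PIM1, a serine/threonine kinase, was lowest in replicate 1 with 244 and had 276 in replicate 2, and CDC5L, a splicing factor, had 279 and 247. The lowest member of this list was higher than the 75th percentile of 6q, which was 221 and 245.

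Replication-dependent histone genes of 6p were close to the median of the arm. Of 55 genes, 41 had a TSS peak in both replicates, 1 in replicate 2 alone and 13 in none. The 41 genes were represented by only 27 peaks, since many H2A and H2B genes are paired head to head. Their heights spanned 17 to 572 (replicate 1) and 14 to 561 (replicate 2), with medians of 326 and 385. H2BC4 and H2AC6 shared the highest peak in replicate 1 (572 and 539), and H1-4 and H2BC5 shared a peak of 523 and 561. H1-6, the linker histone of the testis, had the lowest, at 17 and 14.

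HLA genes covered most of the range of 6p. Of 19 genes, 16 had a TSS peak, with medians of 285 and 287, and 5 were above the median of the arm. The class I genes HLA-B (573 and 608), HLA-E (512 and 589), HLA-F (401 and 380) and HLA-C (322 and 291) were all between 291 and 608. Among class II genes, which are chiefly those of antigen-presenting blood cells, HLA-DRA was 95 and 82, HLA-DQA1 43 and 41 and HLA-DQB2 19 and 19, and HLA-DRB1 and HLA-DRB5 had no TSS peak. HLA-DMA, at 942 and 961, owed its value to the peak it shares with BRD2. HLA and histone genes have near-identical copies among which reads can be split, so their heights are uncertain.

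The antigen processing genes beside them were higher. All 5 had a TSS peak and 4 were above the median of the arm, with medians of 481 and 503. PSMB8 and PSMB9, subunits of the immunoproteasome, shared a peak of 697 and 778, TAP2, a subunit of the peptide transporter, had 481 and 503, and TAPBP, which loads peptides onto class I molecules, had 238 and 266.

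Translation and housekeeping genes lay on both arms. On 6p, TUBB, a beta-tubulin, was 792 and 836 high, RPS18 471 and 489, RPL10A 337 and 400 and RPS10 137 and 152. The peak of RPS18 lay near an internal TSS at 33275866, by the 3′ end of the gene. On 6q, TBP and PSMB1 shared a peak of 289 and 336, SOD2, the mitochondrial superoxide dismutase, had 279 and 305, EEF1A1, the elongation factor that delivers transfer RNA, 152 and 167, and RPS12 109 and 91. Of the ribosomal protein genes of this list, the 2 highest were on 6p, RPS18 by its internal peak. The ranges of the arms overlapped, because RPS10 lay below most of the genes of 6q.

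Regulators of growth on 6q were close to the median of their arm. Of 23, 22 had a TSS peak, with medians of 151 and 160.5, and 13 were above the median of 6q in replicate 1 and 11 in replicate 2. ARID1B was highest with 350 and 460. FYN, a Src-family kinase, had 251 and 238, and SGK1, a serum-induced kinase, 203 and 228. IGF2R, the receptor that clears IGF2, had 74 and 79, HDAC2, a histone deacetylase, 71 and 85, and CCN2 was lowest with 49 and 53. PRDM1, FOXO3 and CCNC, which encode a repressor of lymphoid genes, a forkhead factor and cyclin C, were 148 and 138, 153 and 179, and 149 and 145. AKAP12, a scaffold of protein kinases, had no TSS peak. ARID1B alone among them exceeded the median of 6p in both replicates.

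ESR1 was represented by a peak near an internal TSS at 151804431, chr6:151803703-151804258 in replicate 1, with a height of 135 and 146, just under the median of 6q. RMND1 and ARMT1 shared a peak of 279 and 252, ZBTB2, a zinc finger repressor, had 274 and 259, and SYNE1, a linker of the nuclear envelope, 216 and 252. CCDC170 had 81 and 85, and AKAP12 had no TSS peak. Among the 10 luminal markers, ESR1 had the lowest height in replicate 1 and the second-lowest in replicate 2, where TFF1 had 141, and it is the only one of them on chromosome 6.

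**Figure D5:**
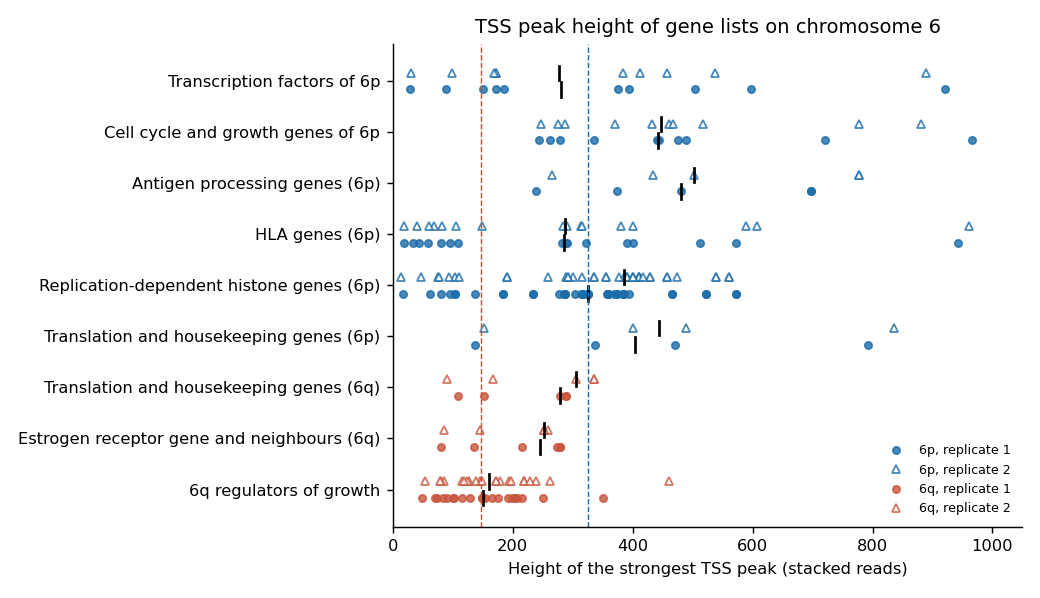
Height of the strongest TSS peak (horizontal axis, stacked reads) of each gene of the lists named on the vertical axis, with filled circles for replicate 1, open triangles for replicate 2, blue for 6p and red for 6q. Black bars mark the median of a list and dashed lines the replicate 1 medians of 6p (326) and 6q (147), and the cell cycle and growth genes of 6p lie at 244 and above while 1 of the 22 growth regulators of 6q lies above 326.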

How the data were processed

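The authors trimmed the ATAC-seq reads with Trim Galore 0.6.5, aligned them to hg38 with Bowtie2 2.3.5.1 and called peaks with MACS2 2.2.6 in each replicate, per the labels. The MACS2 settings, the treatment of duplicates and excluded regions are not given in the sources used here. The deposited columns are a score (10 times the −log10 q, cut to whole numbers), a fold enrichment (ratio to the background) and, as −log10, a p-value and a q-value. Read counts and library totals were not used here, and heights, being stacked reads, scale with the depth of a library. Stacked reads also depend on the number of DNA copies of a region, which was not measured here. The paper reports copy-number aberrations in CAMA-1, and their part in these heights was not tested.

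Heights were recovered from the step between the deposited fold enrichments (0.230 and 0.221), and all values lay within 8.13e-05 of a whole multiple of it. Every peak lay within the chromosome lengths of hg38. Genes and TSSs came from GENCODE release 44, with all TSSs of a gene considered, and a gene was placed in a bin by its most 5′ TSS. Bins that start below 60 Mb were called 6p. Splits left at least 2 bins and 10 genes on each side. Promoter sequences came from RefSeq and matched 721 of 845 genes. The functions were tested on simulated data. Software was Python 3.11.15 with matplotlib 3.10.9, scipy 1.17.1, pandas 2.3.3 and numpy 2.4.6.

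The members, lists and alternatives were chosen with earlier results of these data known. The genes named are, on each side of each step located within an arm in replicate 1, the 3 highest by the mean of both replicates (1 gene per peak) and the 2 nearest, the highest and lowest of each list, the genes around the centromere, and others said in the text to be chosen later. Alternatives covered the q-value, the distance to the TSS, a single TSS per gene, 1 value per peak, histone and HLA genes, the measure, the bins, the motif window and each replicate.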

Additional observations from a re-analysis of the deposited data

How the results depend on the processing

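The ratio of 6p to 6q median TSS peak height stayed above 2.1 under all 12 alternatives. It was 2.27 with TSSs within 100 bp, 2.36 within 3 kb, 2.16 with only the most 5′ TSS, 2.16 with 1 value per peak, 2.25 without histone and HLA genes, 2.85 for the −log10 q in place of height and 2.25 with the arm boundary at 65 Mb, an alternative chosen after seeing the data. Genes with a TSS peak made up 77.5% at a −log10 q of at least 10, 73.6% within 100 bp, 86.5% within 3 kb and 73.3% with the most 5′ TSS, and 81.0% to 81.6% without either replicate.

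With the most 5′ TSS the step on 6p was 0.935 ± 0.412 (SD, n = 2), a mean over 0.644 at 50 Mb in replicate 1 and 1.23 at 15 Mb in replicate 2, so the direction turned in replicate 1 only. It reversed to 0.661 with 1 value per peak and to 0.652 without replicate 2 (0.652 to 1.23 over the replicates left out). It was 1.27 at a −log10 q of at least 10, 1.28 within 100 bp and 1.29 for the −log10 q. Within 3 kb it fell at 30 Mb, at a ratio of 1.30, and in bins of 10 Mb it was 1.17. The step on 6q was 1.23 with 1 value per peak and 1.68 for the −log10 q. The split of the whole chromosome, added after seeing the data, fell at 65 Mb in 9 of 13 alternatives, and at 50 and 55 Mb with the most 5′ TSS (0.466) and at 45 and 60 Mb with 1 value per peak (0.461). It was 0.437 within 100 bp, 0.423 within 3 kb, 0.439 without histone and HLA genes, 0.346 for the −log10 q, 0.446 for the fold enrichment, 0.447 in bins from 2.5 Mb (at 67.5 Mb), 0.448 in bins of 10 Mb (at 60 Mb) and 0.443 without either replicate.

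The 6 neighbouring bins that differed became 3 within 100 bp, 10 in bins from 2.5 Mb, 2 in bins of 10 Mb, 11 in bins of 2.5 Mb, 12 at the lower fold limit tried, 2 at 2 times and 5 to 11 without either replicate. The rank correlation with the number of peaks (0.506) was 0.469 with the most 5′ TSS, 0.540 with 1 value per peak, 0.476 without histone and HLA genes, 0.603 in bins from 2.5 Mb, 0.688 in bins of 10 Mb and 0.534 in bins of 2.5 Mb. The ratio for distal peaks turned from 0.985 to 1.11 at a −log10 q of at least 10. For CTCF letters it was 1.64 at that threshold, 1.46 for the −log10 q and 1.08 within 100 bp. The causes were not tested. Of 95 alternatives, 45 moved a result by less than the spread of the replicates or, for counts, by no more than 1.5 times. No paired analysis was possible because there is a single group. Depth limits the low end, as the lowest called height in the genome was 11.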
